A study of Mus musculus with 15 samples.

Results

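The genes by which the intercalated cells of the kidney handle acid and base were followed in podocyte fractions of young and aged mice. The 9 genes, listed by name, were all found by symbol among the 46078 genes of the count table: Atp6v1g3, Atp6v0d2, Atp6v0a4 and Atp6v1b1, which encode subunits of the vacuolar proton pump; Slc4a1, Slc4a9 and Slc26a4, which encode anion exchangers; Foxi1, which encodes a transcription factor; and Rhcg, which encodes an ammonia channel. The study injected aged mice with an antibody that blocks the immune checkpoint receptor PD-1 (aPD1ab) or with an isotype control antibody (IgG2a), set both beside untreated young mice, and asked what changed with age and with the treatment. All were male C57BL/6J mice. The young mice were 4 months old and received no injection, and both aged groups were 21 months old and received 12 mg/kg of antibody each week by intraperitoneal injection, for 8 weeks by the protocol (the titles of the aPD1ab samples give 47 days). Each library held the cells of digested kidney cortex that magnetic beads retained through antibodies to nephrin, so that the fraction is a selection and not a pure cell type, and cells that came along with the podocytes were counted with them.

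The labels list 5 mice in each group. A group could be given to 13 columns of the table, 5 young, 4 aged IgG2a and 4 aged aPD1ab, with 19912969 to 32717100 counted reads in each. Podocyte markers (8 genes) summed to between 266 and 1412 CPM (counts scaled to library size) and proximal tubule markers (10 genes) to between 1315 and 20180 CPM, so tubule RNA was plentiful in the fraction. Aged IgG2a replicate 1 stood apart from the other aged IgG2a libraries, with 2995 CPM of macrophage markers against 7327 to 9138 and 6766 CPM of proximal tubule markers against 1315 to 2061. The tables of the paper leave it out, so the fits that use that group are given with and without it.

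Intercalated cells lie among the principal cells of the connecting tubule and collecting duct. Type A cells secrete acid through a proton pump in the membrane that faces the urine and return bicarbonate to the blood through the exchanger encoded by Slc4a1, while type B cells secrete bicarbonate through pendrin, the product of Slc26a4, and carry the exchanger encoded by Slc4a9 on the side of the blood. Foxi1 is required for the cells to form and to express the pump and the exchangers, and the pump itself is a rotary enzyme with a soluble part that splits ATP and a membrane part that carries protons.

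Foxi1 belongs to the forkhead family, whose members bind a short core of letters, and this core was looked for in the promoters of the listed genes, that of Foxi1 included. RefSeq promoter windows (GRCm38.p6, 250 bases before to 50 after a start site) were at hand for 6 of the 9 genes, and the motif TGTTTAC was searched on both strands, then the motif TATTTAC, then the motif TGTTTAT and then the motif TATTTAT, which are spellings of the same core. A match was found in 2 of the 6 windows, and 4939 of all 32851 windows of that length, or 15%, held a match. The matches are printed with 11 bases on either side, 5′ to 3′ on the strand of the gene, and the capitals mark the matching letters. The match of Atp6v1b1 lies at chr6:83742908-83742936 on the plus strand, and that of Slc26a4 lies at chr12:31560032-31560060 on the minus strand and reads on the strand opposite to the gene.
Atp6v1b1: accagcttcccTGTTTACagtcaacctgg
Slc26a4: tctgttgctccATAAATAaaacgtcccac
The windows of Atp6v1g3, Atp6v0a4, Rhcg and Foxi1 held none of these letters. A match describes letters in a window, and binding was not measured here.

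In the 5 young libraries, levels between genes were compared as TPM (counts divided by exon length and scaled within a library). Rhcg was at 218 ± 98.6 TPM (SD, n = 5) and stood above the other genes in the list. Its lowest library was at 161 TPM, close to the highest of Atp6v1b1 at 158 TPM. Atp6v0a4 at 107 ± 22.5 TPM, Atp6v1b1 at 101 ± 32.2 TPM and Slc26a4 at 78.6 ± 24.7 TPM followed, with ranges that overlapped. Atp6v1g3, Slc4a9, Slc4a1 and Atp6v0d2 lay between 51.5 and 61.9 TPM on average and were not separated by their spread. Foxi1 was the lowest, at 35.9 ± 15.3 TPM (SD, n = 5), a level that also overlapped the genes above it. Between 307 and 10268 reads were counted for each of the 9 genes in every library.

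With age, all 9 genes were lower on average in aged IgG2a than in young mice, and Slc4a9 was the gene that passed the test. The young mice were not injected, so age and injection cannot be told apart in any comparison with young. Here and below, "with age" names a difference from young mice that includes the injections. The summed level of the 9 genes was 742 to 1486 CPM in young mice, 582 to 1122 in aged IgG2a mice and 582 to 614 in the latter without replicate 1. Fewer intercalated cells and less RNA per cell cannot be told apart in these bulk fractions. By edgeR's quasi-likelihood test, 1 of the 9 genes had an adjusted p under 0.05, against 17.4% of all 15953 genes tested, and their median log2 fold change was -0.51 against 0.038 for all genes. Without aged IgG2a replicate 1, 6 of the 9 fell (Slc4a9, Atp6v0a4, Slc26a4, Atp6v0d2, Atp6v1b1 and Rhcg), against 45.6% of 16216 genes, and the median was -0.72 against -0.0062.

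With aPD1ab, 4 of the 9 genes were higher and 5 lower on average than with IgG2a, and none passed the test. The share of all 15530 genes that passed was 0%, with 4341 of them at an unadjusted p under 0.05 and none of the 9 genes among these. DESeq2 called 2373 of all genes and none of the 9, and limma voom with sample quality weights called 6177 and 1 of the 9, Atp6v0a4. Without aged IgG2a replicate 1, edgeR called Atp6v0a4 as well, 1 of 9 against 30.4% of 15770 genes.

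Against young mice, the aged aPD1ab mice had lower means for all 9 genes, and 3 passed the test (Atp6v0d2, Slc4a9 and Slc26a4), against 22.4% of 15986 genes. The median log2 fold change of the 9 was -0.50, against 0.017 for all genes. The comparisons share the young, the aged IgG2a and the aged aPD1ab libraries, and their values are therefore given side by side and not as independent support.

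**Figure D1:**
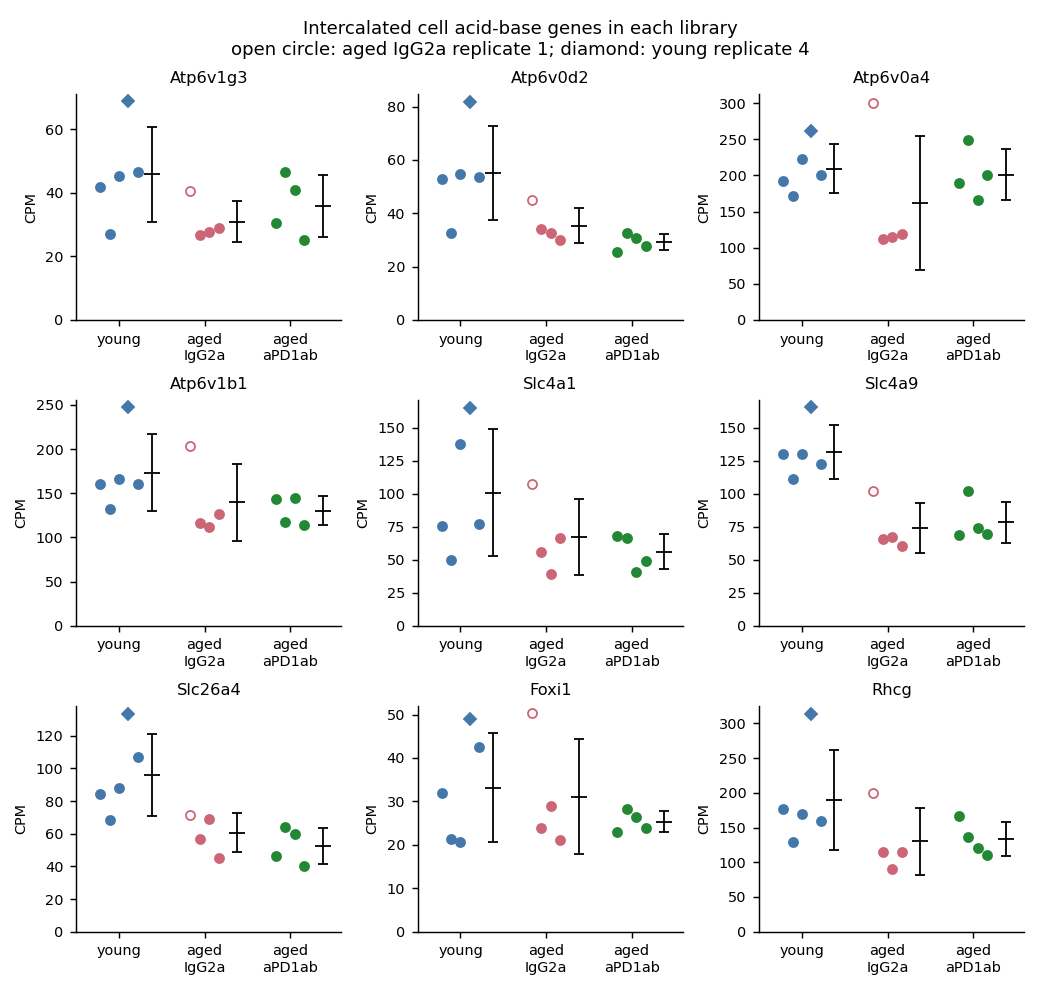
Each panel plots the CPM of a gene (y axis, from 0) in every library of the young, aged IgG2a and aged aPD1ab groups, with the group mean and SD beside the points. Young replicate 4 (diamond) was the highest of the 13 libraries for 7 of the 9 genes, and aged IgG2a replicate 1 (open circle) for the other 2, Atp6v0a4 and Foxi1.

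Slc4a9 (chromosome 18) encodes AE4, the exchanger on the blood side of type B cells, and gave the clearest difference with age. The young libraries held 130.3, 111, 130.5, 165.5 and 122 CPM. The aged IgG2a libraries held 102, 66.1, 67.5 and 60.9 CPM, and the aged aPD1ab libraries 69.2, 102, 73.9 and 69.2 CPM. Every aged library of either group lay below every young library, and the highest of each aged group, IgG2a replicate 1 and aPD1ab replicate 2, came near the lowest young one. Means were 132 ± 20.4 CPM (SD, n = 5) in young, 74.1 ± 18.9 (SD, n = 4) in aged IgG2a and 78.5 ± 15.7 (SD, n = 4) in aged aPD1ab mice. The log2 change was -0.77 (SE, the standard error, 0.17, edgeR adjusted p = 0.0208) for aged IgG2a against young and -0.74 (SE 0.16, edgeR adjusted p = 0.00964) for aged aPD1ab against young. Between the aged groups it was 0.079 (SE 0.21, edgeR adjusted p = 0.826). Both differences from young passed the test, and that between the aged groups did not. Leaving out aged IgG2a replicate 1 gave -0.97 (edgeR adjusted p = 0.000163) with age and 0.26 (edgeR adjusted p = 0.287) with aPD1ab. Leaving out young replicate 3 or any of the other 3 aged IgG2a libraries took the adjusted p for age above 0.05, while the log2 fold change stayed between -0.97 and -0.68 across all 9 libraries left out in turn.

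Slc26a4 (chromosome 12, 31519827 to 31559969, minus strand, GRCm38) encodes pendrin, which moves bicarbonate into the urine in exchange for chloride. In young mice it was at 84.0, 68.3, 87.7, 133.5 and 107 CPM. In aged IgG2a mice it was at 71.7, 56.8, 68.7 and 45.4 CPM, and in aged aPD1ab mice at 46.6, 64.0, 59.7 and 40.2 CPM. All 4 aPD1ab libraries lay below all 5 young libraries, while the upper aged IgG2a libraries overlapped young replicate 2. The gene fell in aPD1ab against young mice, with a log2 fold change of -0.86 (SE 0.20, edgeR adjusted p = 0.0155). Against young the aged IgG2a mice differed by -0.60 (SE 0.20, edgeR adjusted p = 0.0665), and by -0.70 (edgeR adjusted p = 0.0258) without replicate 1, and DESeq2 called the gene with all libraries (adjusted p = 0.023). The aged groups differed by -0.21 (SE 0.20, edgeR adjusted p = 0.503), and by -0.14 (edgeR adjusted p = 0.642) without that library.

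Slc4a1 (chromosome 11, 102348824 to 102366203, minus strand) encodes AE1, the exchanger of type A cells, which red cells also carry. Its levels were 75.6, 50.1, 137.5, 165 and 77.0 CPM in young, 107, 55.7, 39.6 and 66.7 in aged IgG2a and 67.9, 66.9, 40.6 and 49.4 in aged aPD1ab mice. Young replicates 3 and 4 were high and the groups overlapped, and no comparison passed the edgeR test with all libraries. The log2 change was -0.53 (edgeR adjusted p = 0.334) for aged IgG2a and -0.83 (edgeR adjusted p = 0.0952) for aged aPD1ab mice against young. The change with age was -0.85 (edgeR adjusted p = 0.115) without aged IgG2a replicate 1 and -0.28 (edgeR adjusted p = 0.624) without young replicate 4, so that single libraries moved it in both directions. In aged aPD1ab against young mice the gene was called by DESeq2 (adjusted p = 0.0416) and by edgeR without young replicate 2 (log2 change -1.01, adjusted p = 0.0434). Between the aged groups the log2 change was -0.26 (edgeR adjusted p = 0.585), and 0.036 (edgeR adjusted p = 0.924) without aged IgG2a replicate 1. Globin and other erythroid transcripts (8 genes) summed to between 25.2 and 198 CPM. They were at 128 and 49.2 CPM in young replicates 3 and 4, where Slc4a1 was highest, and within aged IgG2a mice at 198 and 186 CPM in replicates 1 and 4, which held the most Slc4a1, against 104 and 103 CPM in the others. Among young libraries these transcripts were highest in replicate 5, at 147 CPM, where Slc4a1 was at 77.0 CPM. Their part in the level of Slc4a1 was not tested.

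Atp6v0d2 (chromosome 4, 19876841 to 19922605, minus strand) encodes the d2 subunit in the membrane part of the pump and is also made by macrophages and osteoclasts. It was at 52.7, 32.5, 54.9, 81.8 and 53.6 CPM in young, 45.1, 34.0, 32.7 and 29.8 in aged IgG2a and 25.7, 32.6, 30.7 and 27.8 in aged aPD1ab mice. Young replicate 2 lay within the range of the aged libraries, and the other 4 young libraries lay above all aged ones. The gene fell in aged aPD1ab against young mice by 0.90 on the log2 scale (SE 0.22, edgeR adjusted p = 0.0162). The log2 fold change for aged IgG2a against young was -0.58 (SE 0.23, edgeR adjusted p = 0.103), and -0.72 without replicate 1 (edgeR adjusted p = 0.0385) or without young replicate 2 (edgeR adjusted p = 0.0461). Of 10 macrophage markers, 8 rose in aged IgG2a against young mice, beside 17.4% of all genes called. Without replicate 1 it was 10 of 10, beside 45.6%. In aged aPD1ab against young mice 0 of 10 passed by edgeR, beside 22.4%. Their summed level was 1917 to 3536 CPM in young, 2995 to 9138 in aged IgG2a and 2300 to 5129 in aged aPD1ab mice. The part of macrophages in the level of Atp6v0d2 was not tested.

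Atp6v0a4 (chromosome 6, 38048483 to 38124586, minus strand) encodes the a4 subunit, part of the channel through which protons cross the membrane, and loss of the human gene causes distal renal tubular acidosis. It was at 192, 171, 223, 261 and 200.2 CPM in young mice and at 189.8, 249, 165 and 200.3 CPM in aged aPD1ab mice. In aged IgG2a mice it was at 301 CPM in replicate 1 and at 112, 114 and 119.5 CPM in the others. The single high library decided the result. With it, the log2 fold change for aged IgG2a against young was -0.32 (SE 0.29, edgeR adjusted p = 0.454) and that for aPD1ab against IgG2a was 0.32 (SE 0.34, edgeR adjusted p = 0.558). Without it, these were -0.81 (SE 0.13, edgeR adjusted p = 0.00063) and 0.78 (SE 0.17, edgeR adjusted p = 0.0138), and the 3 remaining IgG2a libraries lay below every young and every aPD1ab library. Aged aPD1ab and young mice differed by -0.048 (SE 0.16, edgeR adjusted p = 0.85). Proximal tubule markers had the same order of groups, with 10 of 10 lower in aged IgG2a than in young mice, with or without replicate 1. The share of all genes called was 17.4% with it and 45.6% without it. None of these markers was called in aPD1ab against young, beside 22.4% of all genes, and their part in this result was not tested. Exons of Atp6v0a4 share 62 bases with Tmem213 on the opposite strand and 259 bases with D630045J12Rik on the same strand, and whether the counting used strand is not given in the sources used here.

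Atp6v1b1 (chromosome 6, 83742990 to 83758855, plus strand) encodes the B1 subunit in the soluble part of the pump. It was at 160.1, 132, 166, 248 and 160.4 CPM in young, 204, 116, 112 and 127 in aged IgG2a and 144, 117, 145 and 114.5 in aged aPD1ab mice. With all libraries it passed in no comparison, at -0.25 (edgeR adjusted p = 0.435) for aged IgG2a and -0.40 (edgeR adjusted p = 0.122) for aged aPD1ab against young. Without aged IgG2a replicate 1 the 3 other aged IgG2a libraries lay below all 5 young libraries, and the log2 change was -0.50 (SE 0.18, edgeR adjusted p = 0.0401). Leaving out young replicate 4 instead brought the change with age to -0.088 (edgeR adjusted p = 0.783) and that in aPD1ab against young to -0.25 (edgeR adjusted p = 0.206).

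Atp6v1g3 (chromosome 1, 138273738 to 138289462, plus strand) encodes the G3 subunit of the stalk that holds the soluble part in place. It was at 41.8, 27.2, 45.5, 68.9 and 46.6 CPM in young, 40.7, 26.8, 27.7 and 28.9 in aged IgG2a and 30.4, 46.7, 40.9 and 25.2 in aged aPD1ab mice. The groups overlapped, and the log2 fold change with age was -0.51 (edgeR adjusted p = 0.149), or -0.67 (edgeR adjusted p = 0.0502) without aged IgG2a replicate 1 and -0.31 (edgeR adjusted p = 0.295) without young replicate 4.

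Foxi1 (chromosome 11, 34204338 to 34208089, minus strand) showed no difference that passed. Its levels were 32.02, 21.5, 20.7, 49.1 and 42.5 CPM in young, 50.4, 23.8, 29.0 and 21.2 in aged IgG2a and 22.9, 28.2, 26.4 and 23.9 in aged aPD1ab mice. Young and aged IgG2a ranges coincided almost fully, at -0.033 on the log2 scale (SE 0.32, edgeR adjusted p = 0.952), and the sign turned when any of 4 libraries was left out, with values from -0.37 without aged IgG2a replicate 1 to 0.16 without young replicate 4. Against young, aged aPD1ab mice differed by -0.38 (SE 0.25, edgeR adjusted p = 0.293).

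Rhcg (chromosome 7, 79593363 to 79617657, minus strand) encodes a channel through which ammonia leaves for the urine, in intercalated cells and in other cells of the same tubule. It was at 176, 129, 169, 313 and 159.7 CPM in young, 200.1, 114, 90.5 and 115 in aged IgG2a and 166, 136, 119.8 and 111 in aged aPD1ab mice. Young replicate 4 and aged IgG2a replicate 1 were the high libraries, and the groups overlapped. The log2 fold change with age was -0.49 (SE 0.29, edgeR adjusted p = 0.254), and -0.77 (SE 0.27, edgeR adjusted p = 0.0405) without aged IgG2a replicate 1, when the 3 remaining libraries lay below all young ones. It was -0.23 (edgeR adjusted p = 0.53) without young replicate 4, and the 2 high libraries thus moved it in opposite directions.

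Counted over the libraries instead of by the test, 1 of the 9 genes (Slc4a9) had every aged IgG2a library below every young library, against 9.73% of all genes tested. Without aged IgG2a replicate 1 there were 4 (Slc4a9, Atp6v0a4, Atp6v1b1 and Rhcg), against 27.4%. For aged aPD1ab below young there were 2 (Slc4a9 and Slc26a4), against 10.6%. With aPD1ab, 0 of the 9 genes had every library above every IgG2a library, against 7.24% of genes, and without replicate 1 there were 2 (Atp6v0a4 and Slc4a9), against 24.8%.

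**Figure D2:**
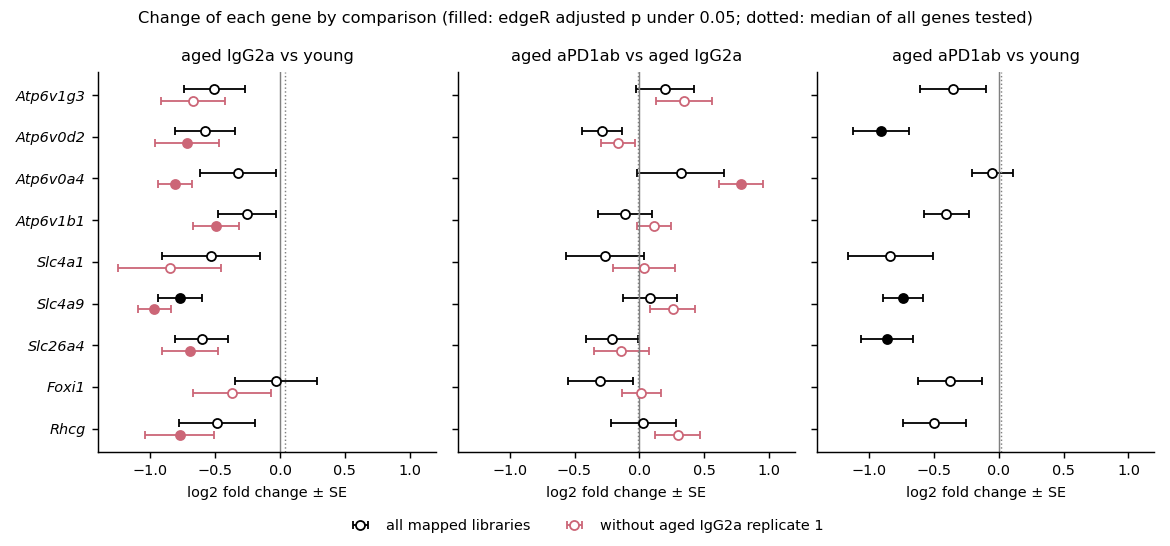
Each panel plots the log2 fold change of the 9 genes (x axis) with its standard error for a comparison, with all mapped libraries (black) and without aged IgG2a replicate 1 (red), and filled points had an edgeR adjusted p under 0.05. In the age comparison 1 gene is filled with all libraries and 6 without the doubted library, and in aged aPD1ab against young 3 are filled, all on the lower side.

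The 4 pump subunits have close relatives that most cells use, and the ratio of the intercalated cell subunit to its relative within a library does not depend on the scaling between libraries. The ratio of Atp6v0d2 to Atp6v0d1, both per kilobase, was 0.501 ± 0.14 (SD, n = 5) in young, 0.306 ± 0.035 (SD, n = 4) in aged IgG2a and 0.191 ± 0.041 (SD, n = 4) in aged aPD1ab mice. Every aPD1ab library, from 0.153 to 0.247, lay below every IgG2a library, from 0.274 to 0.354. Aged aPD1ab differed from young by -1.37 on the log2 scale (two-sided exact permutation p = 0.00794, the smallest that 5 against 4 libraries allow, and 0.0572 after adjustment over 12 ratio tests). The ratio of Atp6v1g3 to Atp6v1g1 was 0.385 ± 0.11 in young (SD, n = 5), 0.272 ± 0.028 in aged IgG2a (SD, n = 4) and 0.177 ± 0.052 in aged aPD1ab mice (SD, n = 4), and differed by -1.14 between aged aPD1ab and young (exact permutation p = 0.0159, adjusted 0.0572).

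The ratio of Atp6v1b1 to Atp6v1b2 in young mice was 1.10 ± 0.34 (SD, n = 5), with 1.09 ± 0.20 (SD, n = 4) for aged IgG2a, and 0.935, 0.451, 0.872 and 0.408 in the aged aPD1ab libraries. Replicates 2 and 4 of aPD1ab thus set its lower mean, and the difference from young was -0.78 (exact permutation p = 0.0159, adjusted 0.0572). The ratio of Atp6v0a4 to Atp6v0a1 was 5.78 in aged IgG2a replicate 1 and 1.77, 1.71 and 1.82 in the other IgG2a libraries, against 3.17 to 5.21 in young and 2.50 to 4.43 in aged aPD1ab mice. With all libraries none of the 12 ratio tests passed after adjustment, and 4 against 4 libraries cannot give an exact p below 0.0286. Without aged IgG2a replicate 1 the log2 differences with age were -0.75 for Atp6v0d2, -0.51 for Atp6v1g3, -0.11 for Atp6v1b1 and -1.18 for Atp6v0a4 (exact permutation, adjusted p from 0.0536 to 0.857). Leaving out young replicate 2 or aged aPD1ab replicate 1 took 5 and 6 of the tests just under the threshold, each at an adjusted exact permutation p of 0.049. These were the ratios of Atp6v0d2 and Atp6v1g3 in all 3 comparisons and that of Atp6v1b1 in both comparisons with aPD1ab.

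The lower ratios in aPD1ab came with higher levels of common relatives and with lower means of the subunits themselves. Against young mice Atp6v0d2 changed by -0.90, Atp6v1g3 by -0.35 and Atp6v1b1 by -0.40 on the log2 scale, and of these Atp6v0d2 passed. Of the 18 pump genes that most cells use, 8 rose and 1 fell in aged aPD1ab against young mice, beside 22.4% of all genes called, with a median log2 fold change of 0.27 against -0.50 for the 9 genes. Atp6v1g1, the common G subunit, rose by 0.83 (SE 0.15, edgeR adjusted p = 0.00557), Atp6v0b, part of the proton ring, by 0.66 (SE 0.11, edgeR adjusted p = 0.00454), and Atp6v0d1, the common d subunit, by 0.55 (SE 0.15, edgeR adjusted p = 0.0268). Atp6v1a, the catalytic A subunit that pumps of all cells share, fell by 0.50 (SE 0.16, edgeR adjusted p = 0.0476). In aged IgG2a against young mice 1 of the 18 rose, Tcirg1, the a3 subunit abundant in macrophages and osteoclasts (1.29, SE 0.28, edgeR adjusted p = 0.0198). In the same comparison 1 fell, Atp6v0e2 (-1.30, SE 0.27, edgeR adjusted p = 0.0173), beside 17.4% of all genes called. Without replicate 1 there were 3 higher and 6 lower, beside 45.6% of all genes. The common subunits are made by every cell type in the fraction, whose makeup differed between groups, and the part of that makeup in the ratios was not tested.

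**Figure D3:**
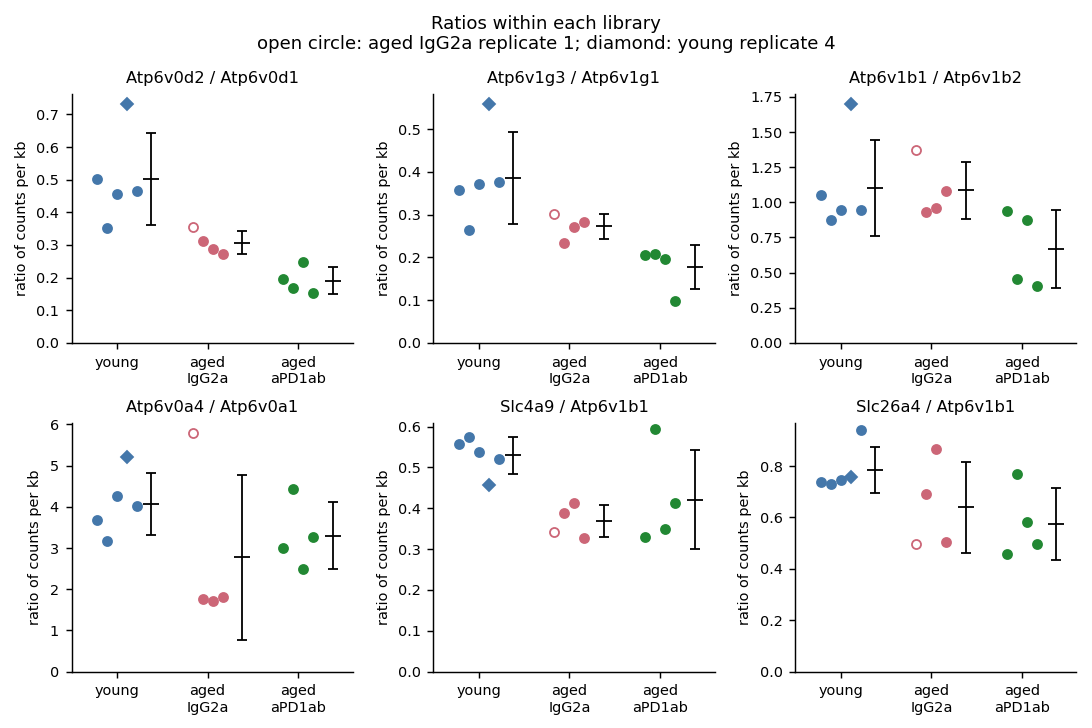
The panels plot, for every library, the ratio of counts per kilobase of an intercalated cell subunit to its common relative, and of Slc4a9 and Slc26a4 to Atp6v1b1 (y axes from 0), with group means and SD. Atp6v0d2 over Atp6v0d1 is lowest in aged aPD1ab, 0.153 to 0.247, and Slc4a9 over Atp6v1b1 is 0.457 to 0.575 in young and 0.328 to 0.413 in aged IgG2a libraries.

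Among the 9 genes, the exchangers were also set beside Atp6v1b1, which both kinds of intercalated cell use, as a description with no test. Slc4a9 per Atp6v1b1 was 0.557, 0.575, 0.538, 0.457 and 0.522 in young and 0.343, 0.390, 0.413 and 0.328 in aged IgG2a libraries, with no overlap and with replicate 1 inside the range of its group. In aged aPD1ab libraries it was 0.330, 0.594, 0.348 and 0.414, so that 3 lay below all young libraries and replicate 2 above them. That library also had the most proximal tubule RNA of all, 20180 CPM of its markers against 1315 to 14290 elsewhere, and its part in the high value was not tested. Slc26a4 per Atp6v1b1 was 0.729 to 0.942 in young, 0.496 to 0.866 in aged IgG2a and 0.457 to 0.769 in aged aPD1ab libraries, which overlapped. Slc4a1 per Slc26a4, the type A exchanger against the type B exchanger, was 0.456 to 0.997 in young, 0.367 to 0.953 in aged IgG2a and 0.433 to 0.927 in aged aPD1ab libraries, and did not separate the groups.

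Across the 13 libraries, the log2 levels of the 36 pairs of these genes had a Pearson r between 0.43 and 0.936, with a median of 0.735. The highest were 0.936 for Atp6v1b1 with Rhcg and 0.929 for Atp6v0d2 with Slc26a4, and the lowest was 0.43 for Atp6v0a4 with Slc26a4. The 8 pairs with Foxi1 ran from 0.482 to 0.713, each below that median. These points share libraries and groups, so the values only describe how the genes moved together. Of 16321 genes compared over the 13 libraries, those most like the mean z score of the 9 included Atp6v1c2 (r = 0.956), Wscd2 (0.955), Ociad2 (0.949) and Slc44a3 (0.946). Atp6v1c2, the C2 subunit of the pump, was also among the 5 most like Slc4a9 (0.954), Slc26a4 (0.91) and Atp6v0d2 (0.925). The insulin receptor relative Insrr, a sensor of alkaline pH in type B cells, was among the 5 most like Slc26a4 (0.906), and Kit among the 5 most like Slc4a1 (0.899).

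Of 20 other genes that mark or serve intercalated cells, 19 could be tested, and 2 fell and none rose in aged IgG2a against young mice, a smaller share than the 17.4% of all genes called, with a median log2 fold change of -0.60. Insrr was at 42.4 to 70.6 CPM in young, 23.1 to 33.5 in aged IgG2a and 23.6 to 25.5 in aged aPD1ab mice, and fell by 0.89 (SE 0.16, edgeR adjusted p = 0.011) and by 1.12 (SE 0.14, edgeR adjusted p = 0.00291) in the aged groups. Car12, a carbonic anhydrase at the cell membrane, fell by 1.28 in aged IgG2a mice (SE 0.24, edgeR adjusted p = 0.013). It was at 177 to 274 CPM in young and at 98.05, 245, 93.5 and 189 CPM in aged aPD1ab libraries. Of the 19, 16 had negative and 3 positive values with age. Atp4a, also among the highest of the list, had a positive value that did not pass (0.59, SE 0.25, edgeR adjusted p = 0.121). It was at 78.8 to 121 CPM in young, 105.5 to 239 in aged IgG2a and 111 to 165 in aged aPD1ab mice. Without replicate 1 the changes with age were -1.004 for Insrr and -1.58 for Car12, and the counts were 11 lower and 1 higher, the latter P2ry14, beside 45.6% of all genes called.

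In aged aPD1ab against young mice 8 of the 19 fell and none rose, beside 22.4% of all genes called, with a median of -0.65. Tfcp2l1, a transcription factor of collecting duct cells, was at 366 to 705 CPM in young and 249 to 309 in aged aPD1ab mice and fell by 0.74 (SE 0.20, edgeR adjusted p = 0.0241). Oxgr1, the receptor for oxoglutarate on type B cells, fell by 1.16 (SE 0.24, edgeR adjusted p = 0.00997), and Atp6v1c2 by 0.71 (SE 0.18, edgeR adjusted p = 0.0198). Car2, the cytosolic carbonic anhydrase of intercalated and other tubule cells, was at 131 to 203 CPM in young and at 126, 272, 158 and 285 CPM in aged aPD1ab libraries, and was not lower. In aged IgG2a against young mice the log2 change of Car2 was -0.60 (SE 0.23, edgeR adjusted p = 0.0897). Without replicate 1 this change was -0.92 (edgeR adjusted p = 0.000336). Between the aged groups 0 of the 19 passed with all libraries by edgeR, 4 of them at an unadjusted p under 0.05, and 2 passed in each direction without replicate 1, beside 30.4% of all genes.

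Principal cell markers did not move in a single direction. Of 8 tested, 1 rose and none fell in aged IgG2a (beside 17.4% of all genes called) and 2 rose and none fell in aged aPD1ab against young mice (beside 22.4%), with median log2 fold changes of 0.11 and 0.092. Aqp2, the water channel of principal cells, was at 68.7 to 182 CPM in young, 154 to 370 in aged IgG2a and 266 to 457 in aged aPD1ab mice. Its log2 change with age was 1.05 (edgeR adjusted p = 0.0486), and 0.68 (edgeR adjusted p = 0.0632) without aged IgG2a replicate 1, when none of the 8 passed by edgeR and 2 had an unadjusted p under 0.05. Aqp3, another water channel, was the second to rise in aged aPD1ab mice (0.89, edgeR adjusted p = 0.0448). The sodium channel subunits Scnn1b and Scnn1g and the steroid enzyme Hsd11b2 had negative values in aged IgG2a mice as the 9 genes did, -0.35, -0.35 and -0.31, and in aged aPD1ab mice, -0.59, -0.54 and -0.47, and none of these passed. The summed principal cell level was 397 to 1054 CPM in young, 502 to 995 in aged IgG2a and 666 to 1075 in aged aPD1ab mice, while in the libraries where the 9 genes were highest, young replicate 4 and aged IgG2a replicate 1, it was 1054 and 995 CPM. Young replicate 4 also had the most of the 20 other intercalated cell genes, 1859 CPM against 702 to 1400 in all other libraries.

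Markers of other cells were counted in the same way. The share of all genes called was 17.4% in aged IgG2a against young mice, and 45.6% without replicate 1. In aged aPD1ab against young mice it was 22.4%. Distal convoluted and connecting tubule markers fell for 1 of 7 in aged IgG2a mice (5 of 7 without replicate 1) and 3 of 7 in aged aPD1ab mice. Thick ascending limb markers fell for none of 5 in either aged group with all libraries (0 by edgeR, and 0 at an unadjusted p under 0.05), and for 3 of 5 in aged IgG2a mice without replicate 1. Proximal tubule markers fell for 10 of 10 in aged IgG2a mice, to a median log2 fold change of -1.84, or -2.57 without replicate 1 with 10 of 10 called again, and 0 of 10 passed in aged aPD1ab mice against young by edgeR, 0 of them at an unadjusted p under 0.05. Macrophage markers rose for 8 of 10 in aged IgG2a mice, for 10 of 10 without replicate 1, and for 0 of 10 in aged aPD1ab mice against young by edgeR, 2 of them at an unadjusted p under 0.05. Podocyte markers fell for 6 of 8 and rose for 1 in aged IgG2a mice, counts that were equal without replicate 1, and fell for 2 of 8 in aged aPD1ab mice. The part of this makeup in the levels of the 9 genes was not tested.

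**Figure D4:**
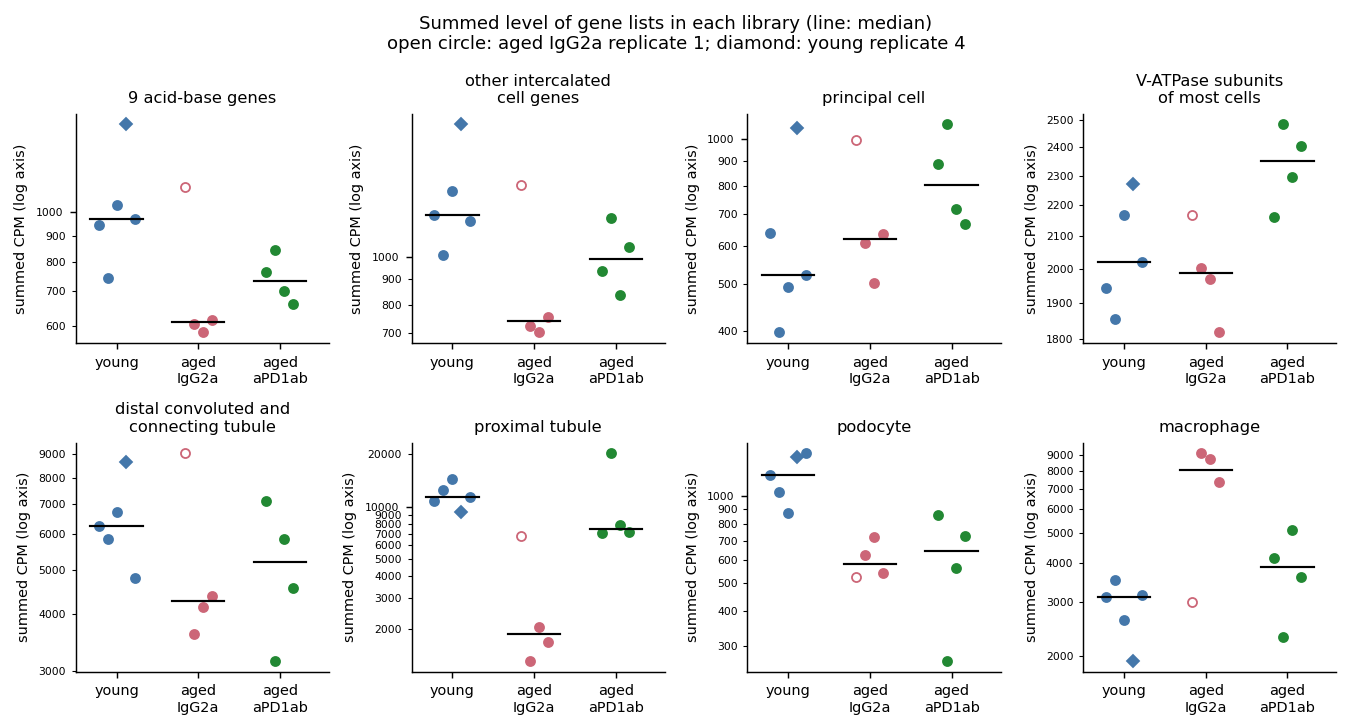
The panels plot the summed CPM of 8 gene lists (log axes) in every library, with the median of each group as a line. The 9 genes and the other intercalated cell genes are highest in young replicate 4 (diamond) and lowest in aged IgG2a replicates 2 to 4, while macrophage markers are highest in those same 3 libraries, at 7327 to 9138 CPM.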

How the data were processed

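The authors deposited raw counts of reads per Ensembl gene without normalization, and per the labels HISAT2, featureCounts and the mouse builds mm10 and GRCm38 were used, with TruSeq libraries. Versions and strand settings are not given in the sources used here. A symbol was found in GENCODE M21 for 45229 of 46078 genes. Groups of 13 columns come from the numbers in the principal component plot of the paper, and 2 further columns of per-sample values were not used. The groups were fitted pairwise in R 4.3.3 with edgeR 4.0.16 (TMM, filterByExpr, robust quasi-likelihood test, Benjamini-Hochberg over all genes tested, called at an adjusted p under 0.05). CPM used TMM factors over the 13 libraries, and TPM used union exon lengths. Log2 CPM for likeness had a prior count of 2. Ratios had 0.5 count added and were compared by two-sided exact permutation tests. Alternatives used DESeq2 1.42.0, limma 3.58.1, other scaling and filters, and libraries left out. The fit was tested on simulated data. Totals and floors (3 counts) cover counting error only. The labels do not tie columns to animals by number.

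The 9 genes and the lists were chosen with earlier results of these data known. Named in the text are all 9 genes and counts over each list. The rule for other genes took the highest members of other lists and the 5 genes most like each of the 9. Only some of these are named. Some list genes outside this rule (Oxgr1, Atp6v1g1, Atp6v0b, Atp6v0d1, Tcirg1, Atp6v0e2, P2ry14, Aqp3, Scnn1b, Scnn1g and Hsd11b2) were named after their values were seen. Markers of endothelial, mesangial and lymphoid cells were compared as well: 5 of 6, 3 of 5 and 0 of 7 fell in aged IgG2a mice (6, 3 and 0 without replicate 1), 2 of the 7 lymphoid ones rose (3 without it), and in aged aPD1ab mice 2 of 6 and 3 of 5 fell and 2 of the 7 rose. Of 8 erythroid genes 5 could be tested and 0 passed by edgeR in either, none at an unadjusted p under 0.05. Over all genes, the share called was 17.4% in aged IgG2a mice, 45.6% without replicate 1 and 22.4% in aged aPD1ab mice. Protein sequences were not used here, and some genes are not reported here.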

Additional observations from a re-analysis of the deposited data

Results flagged for a closer look

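In a group of 4 or 5 libraries, a library was singled out where its gap to the nearest other, divided by the range of the group, passed the critical value of Dixon's test. Of 27 groups tested (9 genes in 3 groups), 6 held such a library. A single test passes by chance in about 1 in 20 cases, but the 9 genes share the same libraries. The 27 tests are therefore not independent, and the count of 6 cannot be set against that rate. Aged IgG2a replicate 1 was the high library for Atp6v1g3 (40.7 CPM, next 28.9), Atp6v0a4 (301 CPM, next 119.5), Atp6v1b1 (204 CPM, next 127) and Slc4a9 (102.1 CPM, next 67.5). Aged aPD1ab replicate 2 was the high library for Slc4a9 (101.8 CPM, next 73.9), and young replicate 4 for Rhcg (313 CPM, next 176). The same aged IgG2a library held 9066 CPM of distal convoluted and connecting tubule markers against 3623 to 4397 in the others of its group, and the part of this in its high values was not tested.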

How the results depend on the processing

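For aged IgG2a against young, 1 of the 9 genes was called, and 2 with DESeq2, 5 with limma voom, 7 in a joint fit of 3 groups without aged IgG2a replicate 1, 7 without that library and young replicate 4 together (both chosen after seeing the data), 0 with a 2-fold threshold, and 0 to 6 with each library left out in turn. Over all genes the counts were 2780, and 4455, 7447, 6417, 7029, 1353 and 553 to 7397. For aPD1ab against IgG2a, 0 of the 9 were called by edgeR, and 1 with limma voom, 1 in the joint fit without replicate 1, and 0 to 1 with a library left out. Over all genes these were 0, and 2373 with DESeq2, 6177, 2863 in the joint fit of all libraries, 6475 without replicate 1, and 0 to 4788. For aPD1ab against young, 3 were called, 0 with a 2-fold threshold and 3 to 4 with a library left out, and over all genes 3578, 766 and 2369 to 3868. Causes were not tested.

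Directions turned between the aged groups for Atp6v1b1 (0.066 with limma voom, 0.14 in the joint fit without replicate 1, -0.21 to 0.11 with libraries left out), Slc4a1 (0.0051, 0.061, and -0.45 to 0.036) and Foxi1 (0.039 in the joint fit, and -0.44 to 0.016), and with libraries left out for Slc4a9 (-0.090 to 0.26) and Rhcg (-0.11 to 0.30). They also turned for Foxi1 with age (-0.37 to 0.16) and Atp6v0a4 in aPD1ab against young (-0.17 to 0.035). The ratio of Atp6v1b1 to Atp6v1b2 with age ranged from -0.11 to 0.17 on the log2 scale.

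With a library left out, ratios differed on the log2 scale by -0.79 to -0.53 with age, -0.83 to -0.60 between the aged groups and -1.504 to -1.23 in aPD1ab against young for Atp6v0d2, by -0.59 to -0.32, -0.77 to -0.41 and -1.26 to -0.88 for Atp6v1g3, and by -0.98 to -0.58 and -0.98 to -0.58 for Atp6v1b1 in the last 2 comparisons. For Atp6v0a4 they were -1.18 to -0.60, 0.28 to 0.87 and -0.47 to -0.19. Adjusted p was 0.049 for 5 ratios without young replicate 2 and for 6 without aged aPD1ab replicate 1. A prior count of 1 turned no ratio.

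No paired analysis was made, since each group held different mice.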
